A study of Rattus norvegicus with 4 samples.

Results

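The genes that encode the core cell cycle engine were examined across all 4 libraries of the series, which come from rat embryonic stem cells (ESCs) with and without the peptidase gene *Thop1*. Members were chosen by symbol alone: A, B, D and E cyclins with a number, numbered cyclin-dependent kinases (CDKs), CDK inhibitors of the *Cdkn1* and *Cdkn2* families, Cdc25 phosphatases, E2F factors and the pocket protein genes *Rb1*, *Rbl1* and *Rbl2*. This gave 45 of the 34773 genes in the table, made up of 9 cyclins, 17 CDKs, 6 inhibitors, 3 Cdc25 genes, 3 pocket protein genes and 7 E2F genes. No row carries the symbol *Ccnb2*, *Cdk3*, *Cdk8*, *Cdkn2d* or *E2f1*, and these genes are not analysed here under those names.

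Cyclins switch on their CDK partners in turn: D cyclins with CDK4 and CDK6 in early G1, E cyclins with CDK2 at entry into S phase, A cyclins with CDK2 and CDK1, and B cyclins with CDK1 in mitosis. The CDKs phosphorylate the pocket proteins, which otherwise hold E2F factors in check at the promoters of S phase genes, while the Cip/Kip and Ink4 inhibitors hold the kinases back and Cdc25 phosphatases release them. Mouse ESCs are known for a short G1 phase and for high CDK activity through most of the cycle.

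WT is 1 library of DA-5-3, a rat ESC line labelled with the *Rex1*-GFP reporter, and *Thop1*-KO is 1 library each of 3 subclones (#1, #2 and #3) derived from that labelled line with Cas9, an sgRNA against *Thop1* and puromycin selection. Each subclone is a single picked colony, and the sources do not say whether the WT cells went through transfection or selection, so the genotype and the history of a clone cannot be told apart. The cultures of the study were kept on feeders with 2i/LIF, according to its methods, that is with the MEK inhibitor PD0325901, the GSK3 inhibitor CHIR99021 and the cytokine LIF. DA-5-3 is a diploid line in the paper, but the deposited design text calls the cells of these libraries haploid. Poly(A) RNA was sequenced, and between 15405499 and 17936544 counts fell on genes per library. The 45 genes held 0.403% of these counts in WT and 0.418% to 0.488% in the subclones.

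*Thop1* itself was checked against the labels. Its level was 370 CPM (counts scaled to library size, with edgeR's TMM factors) in WT and 110, 92.5 and 149 in #1, #2 and #3, a log2 fold change of -1.66 (SE 0.29, adjusted p = 0.0187 in edgeR's quasi-likelihood fit, adjusted after Benjamini-Hochberg). The naive ESC markers with a row summed to 8579 CPM in WT and to between 7532 and 9598 in the subclones. Among them *Esrrb* and *Tfcp2l1* were called higher and *Dppa5* lower in *Thop1*-KO. Of 8 fibroblast markers with a row, listed because of the feeder cells, 3 (*Dcn*, *Lum* and *Thy1*) had no count in any library, and the lowest adjusted p by edgeR was 0.0863 (*Col3a1*). The fibroblast list summed to 206 CPM in WT and to 324, 649 and 415 in #1, #2 and #3. Primitive endoderm markers summed to 2.89 CPM in WT and at most 7.39 in a subclone, with a lowest adjusted p of 0.0894 by edgeR (*Dab2*). Early differentiation markers summed to 13.6 CPM in WT and at most 8.48 in a subclone, with *Nes* called lower and *Mixl1*, *Pax6* and *Fgf5* at 0 in every library.

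Enough counts for a test were found in 42 of the 45 genes, and edgeR's quasi-likelihood test of the 3 subclones against WT called 3 of them (adjusted p-value under 0.05). All 3 were higher in *Thop1*-KO: the pocket protein genes *Rb1* and *Rbl1* and the kinase gene *Cdk2*. *Rb1* and *Rbl1* had WT counts under the filter's minimum of 10 and passed it only through the subclones. Called genes thus made up 7.14% of the tested members, beside 13.8% of the 15028 genes tested in the whole table, where 8.62% were called higher and 5.17% lower. At an unadjusted p-value under 0.05 the members numbered 8, with 5 higher and 3 lower, which is 19.0% of those tested beside 34% of all genes. WT lay outside the range of the 3 subclones in 27 members (64.3%), below it in 17 and above it in 10, beside 75.7% of all genes. The median log2 fold change of the tested members was 0.17 and that of all genes 0.06. Changes of more than a fold of 2 were seen in 10 of the 42 (23.8%), beside 40.6% of all genes. For calls, unadjusted p-values, WT outside the subclones and folds over 2, the members' share stood below that of the whole table. By direction, WT was above all subclones in 23.8% of the members, beside 37.6% of all genes. It was below them in 17 of 42 members, beside 5720 of 15028 genes, a slightly higher share in the members.

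**Figure D1:**
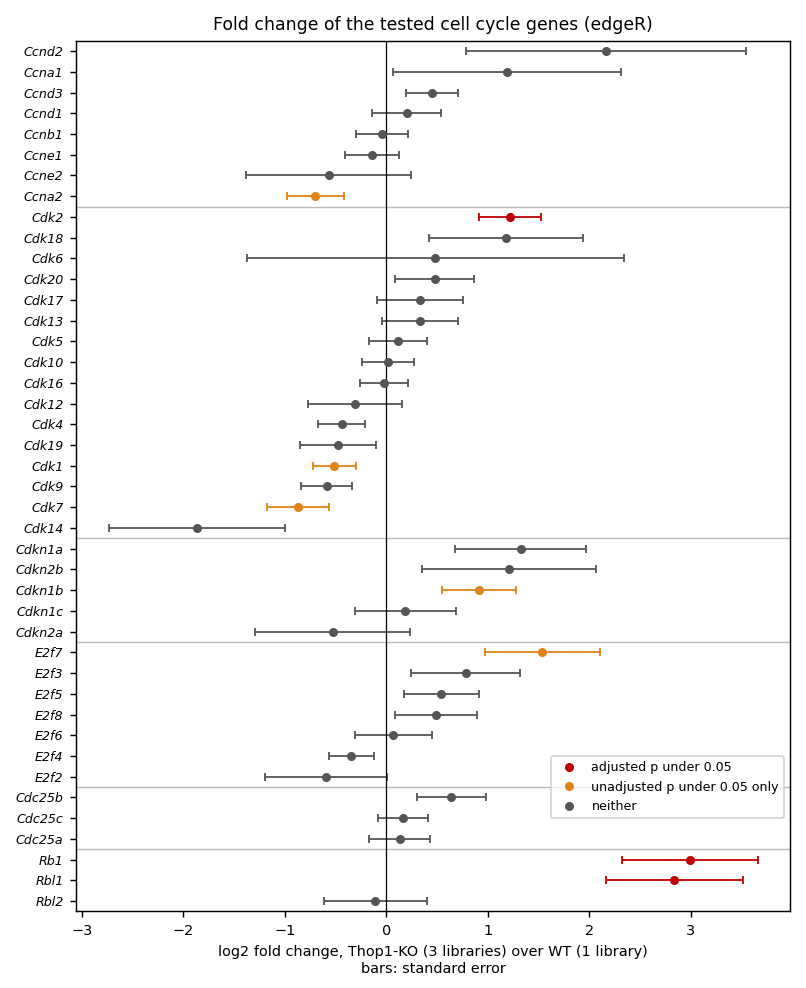
Log2 fold change of the 42 tested cell cycle genes, *Thop1*-KO (3 libraries) over WT (1 library), from edgeR. Points are fitted values, bars are standard errors, grey lines part the role groups, red marks an adjusted p-value under 0.05 (*Rb1*, *Rbl1* and *Cdk2*) and orange an unadjusted p-value under 0.05 only (*E2f7*, *Cdkn1b*, *Cdk7*, *Cdk1* and *Ccna2*).

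The single WT library gives no spread of its own, and an exact permutation of 1 library against 3, taken one-sided, has 0.25 as its smallest p-value. The adjusted p-values therefore depend on the variance estimated from the subclones. How many members were called turned on which subclones entered the fit. Without #3, 0 members were called by edgeR's quasi-likelihood test, beside 3.10% of all genes, and *Rb1*, *Rbl1* and *Cdk2* had adjusted p-values of 0.141, 0.163 and 0.210. Without #1, *Rb1* and *Rbl1* were called and *Cdk2* had an adjusted p of 0.0658. Without #2, 10 of the members were called, beside 37.9% of all genes: *Cdk2*, *Cdkn1a*, *Cdkn1b*, *Rb1* and *Rbl1* higher and *Ccna2*, *Cdk1*, *Cdk4*, *Cdk7* and *E2f2* lower. DESeq2 called 4 members, all higher, adding *Cdkn1a* (adjusted p = 0.0498) to the 3, beside 21.3% of the genes it tested.

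**Figure D2:**
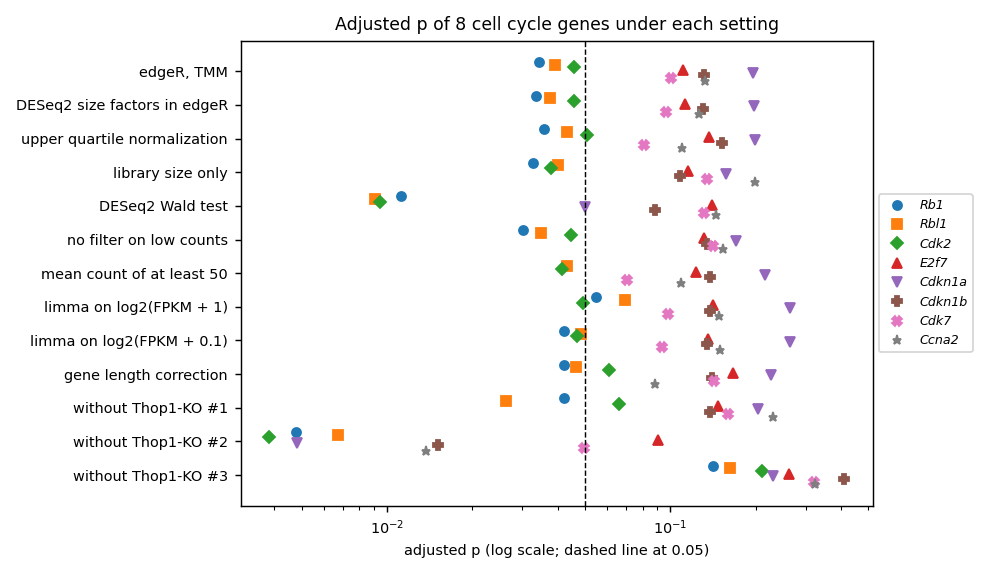
Adjusted p-value of 8 cell cycle genes (log scale, dashed line at 0.05) under the reported edgeR fit, named edgeR, TMM, and 12 alternatives. *Rb1*, *Rbl1* and *Cdk2* lie right of the line without *Thop1*-KO #3, and *Cdkn1a*, *Cdkn1b*, *Cdk7* and *Ccna2* move left of it without #2.

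The 3 called genes are shown with the 300 bases around their starts, 250 before and 50 after, from RefSeq (rat build GRCr8, 5′ to 3′ on the gene's strand). They were searched on both strands for the E2F consensus, TTT followed by 2 letters that are each C or G and then CGC. Capitals mark its matches, which are at bases 3 to 10 in *Rb1*, counted from 1 at the start, and at bases 18 to 11 before the start in *Rbl1*. *Cdk2* has none in this window and has a CCAAT box at bases 117 to 113 before the start.
*Rb1* (chr15:54911808-54912107, minus strand): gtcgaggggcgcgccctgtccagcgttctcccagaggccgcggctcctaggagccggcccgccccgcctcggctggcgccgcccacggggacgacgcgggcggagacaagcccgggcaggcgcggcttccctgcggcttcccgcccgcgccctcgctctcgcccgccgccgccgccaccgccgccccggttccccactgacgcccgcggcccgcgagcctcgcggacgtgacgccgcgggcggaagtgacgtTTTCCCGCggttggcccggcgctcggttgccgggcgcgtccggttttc
*Rbl1* (chr3:166289327-166289626, minus strand): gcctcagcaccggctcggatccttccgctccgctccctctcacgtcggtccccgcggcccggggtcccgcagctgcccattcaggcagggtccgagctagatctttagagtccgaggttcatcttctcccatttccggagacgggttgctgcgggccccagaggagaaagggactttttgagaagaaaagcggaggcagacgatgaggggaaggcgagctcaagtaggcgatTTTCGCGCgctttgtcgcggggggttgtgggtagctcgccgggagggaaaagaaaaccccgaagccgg
*Cdk2* (chr7:1721829-1722128, minus strand): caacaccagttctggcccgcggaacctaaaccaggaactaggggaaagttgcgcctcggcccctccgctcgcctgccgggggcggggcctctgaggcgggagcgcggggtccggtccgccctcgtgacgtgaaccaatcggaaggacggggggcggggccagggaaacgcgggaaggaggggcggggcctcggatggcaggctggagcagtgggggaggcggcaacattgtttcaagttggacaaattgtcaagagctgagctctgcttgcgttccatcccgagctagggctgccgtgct

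Promoters were matched by symbol for 32 of the 45 genes, which have 36 promoters in the table. The E2F letters were in 5 of them (13.9%), those of *Rb1*, *Rbl1*, *Cdk1*, *E2f3* and *Cdc25a*, beside 2.14% of the 33469 promoters of all genes. Of the list of E2F target genes, 10 of 13 had such a promoter, 66.7% of 15 promoters. The CHR letters, TTTGAA, were in 7 member promoters (19.4%) beside 18.4% of all promoters, and CCAAT was in 16 (44.4%) beside 37.5%. No match of the 3 motifs overlapped another in these windows. The stretches of *Cdk1* and *E2f3* around their E2F letters are given for comparison with the 2 pocket protein genes. In *Cdk1* the match is at bases 133 to 126 before the start, and in *E2f3* it is on the other strand at bases 78 to 71 before it.
*Cdk1* (chr20:19265130-19265197, plus strand): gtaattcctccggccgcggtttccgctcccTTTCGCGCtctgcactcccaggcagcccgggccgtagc
*E2f3* (chr17:34810308-34810375, plus strand): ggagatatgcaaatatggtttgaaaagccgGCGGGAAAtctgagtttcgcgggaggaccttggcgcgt

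Fitted changes of the 5 genes with the letters had both signs. *Rb1* and *Rbl1* were called higher, whereas *Cdk1* had a log2 fold change of -0.52, *E2f3* of 0.78 and *Cdc25a* of 0.13, all without an adjusted p-value under 0.05. A match of letters is a description of the sequence, and no binding was measured.

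None of the 8 tested cyclins was called by edgeR or DESeq2, beside 13.8% and 21.3% of all genes tested. A group of 8 is too small for 0 calls to set it apart. In edgeR 1 (*Ccna2*) had an unadjusted p under 0.05, 12.5% beside 34% of all genes. *Ccnd3*, a D cyclin of early G1, was the most abundant of all 45 genes per transcript length, at 700 FPKM (a level scaled by gene length and library size) in WT and 1170, 855 and 840 in #1, #2 and #3. It held between 89.3% and 91.5% of the summed FPKM of the D cyclins in every library. In CPM *Ccnd3* was 1356 in WT and 2251, 1654 and 1646 in the subclones, so WT was lowest, and the log2 fold change was 0.45 (SE 0.25, edgeR adjusted p = 0.254). *Ccnd1*, which answers to growth signals in many cells, was at 329 CPM in WT, 511 in #1, 313 in #2 and 308 in #3. Here #1 alone stood above the other 3 libraries. *Ccnd2* was rare, with 3 counts in WT and 7, 33 and 9 in the subclones. Its log2 fold change was 2.16 (SE 1.38, edgeR adjusted p = 0.303). With counts summed over the subclones, the depth-scaled ratio to WT was 4.63, with an exact 95% interval of 1.49 to 23.2. That interval covers counting error only and not the spread among the subclones, and #2 held 33 of the 49 summed counts.

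*Ccne1*, the E cyclin that drives S phase entry with *Cdk2*, was at 136 CPM in WT and 118, 146 and 107 in #1, #2 and #3, with WT inside the range of the subclones. Its log2 fold change was -0.14 (SE 0.27). *Ccne2* had 23 counts in WT and 8, 27 and 20 in the subclones. *Ccne1* thus gave between 99.3% and 99.7% of the E cyclin FPKM. *Ccne2* shares 521 bases with *Ints8* on the opposite strand, and such overlaps are given here over whole gene spans, introns included.

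*Ccna2*, the A cyclin of S phase and G2, was at 129 CPM in WT and 63.4, 92.9 and 82.3 in #1, #2 and #3. WT lay above all subclones, with a log2 fold change of -0.70 (SE 0.28) and an adjusted p of 0.133 by edgeR. The whole *Ccna2* gene, 6334 bases, lies within *Exosc9* on the opposite strand. *Exosc9*, a subunit of the RNA exosome, had 815 counts in WT and 470, 437 and 578 in the subclones, and no strand-marking step is described for these libraries. The share of *Exosc9* reads in the *Ccna2* value was not tested. *Ccna1*, the A cyclin of the germ line, had 10 counts in WT and 45, 7 and 28 in the subclones, with WT inside their range.

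*Ccnb1*, the mitotic cyclin, was at 191 CPM in WT and 159, 216 and 179 in #1, #2 and #3. WT was inside the range of the subclones, and the log2 fold change was -0.05 (SE 0.26). *Ccnb3*, known mainly from meiosis, had 2 counts in #2 and 0 in the other 3 libraries and was not tested.

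**Figure D3:**
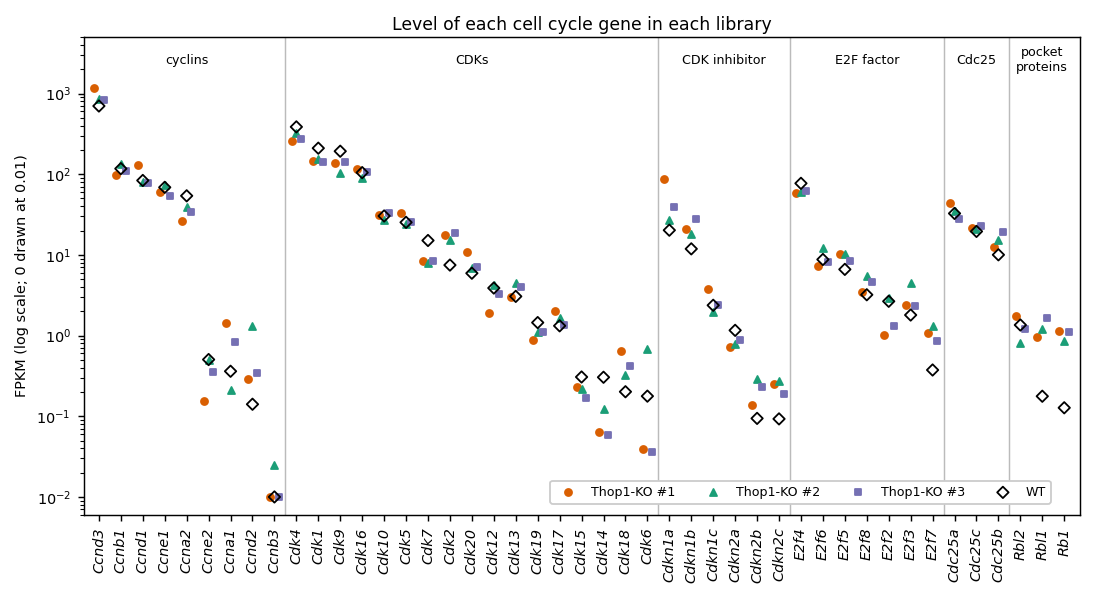
FPKM of each of the 45 genes in each of the 4 libraries (log scale, values of 0 drawn at 0.01), ordered by role and by the WT level. Open diamonds are WT and filled symbols the 3 *Thop1*-KO subclones. *Ccnd3* and *Cdk4* were highest in every library, and the WT diamonds of *Rbl1* and *Rb1*, at 0.177 and 0.127 FPKM, stand apart below the subclones.

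Among the 16 tested CDKs, *Cdk2* was called by edgeR and no other (6.25%, beside 13.8% of all genes). *Cdk2*, the kinase of S phase that works with cyclins E and A, was at 16.6 CPM in WT (247 counts) and at 39.4, 34.3 and 42.0 in #1, #2 and #3, a mean of 38.6 ± 3.94 (SD, n = 3). Every subclone was above the exact 95% counting interval of the WT value, 14.6 to 18.8 CPM. That interval covers counting error only, and the comparison reuses the counts behind the call, so it adds no separate support. The log2 fold change was 1.21 (SE 0.31, edgeR quasi-likelihood adjusted p = 0.0456), and it ran from 1.15 to 1.29 with each subclone left out. The adjusted p-value ran from 0.00385 to 0.210 over the alternatives. *Cdk2* spans 3124954 to 3132457 of chromosome 7 (minus strand) in the deposited coordinates, and it overlaps no other gene of the table.

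Per length, *Cdk2* was below *Cdk4* and *Cdk1* and above *Cdk6* in every library. It was at 7.48 FPKM in WT and 17.8, 15.4 and 18.7 in the subclones, while *Cdk4* was at 386 and 257, 324 and 271, and *Cdk1* at 210 and 145, 156 and 140. The share of *Cdk2* in the summed FPKM of *Cdk1*, *Cdk2*, *Cdk4* and *Cdk6* was 1.24% in WT and between 3.11% and 4.34% in the subclones.

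*Cdk1*, the kinase of mitosis, was at 301 CPM in WT and 206, 222 and 202 in #1, #2 and #3. The subclones lay close together, with a coefficient of variation (SD over mean) of 5.03%, and all were below WT. Its log2 fold change of -0.52 (SE 0.21) had an unadjusted p of 0.0472 and an adjusted p of 0.142 in edgeR's quasi-likelihood fit. *Cdk7*, whose product activates other CDKs and acts in transcription, was at 20.9 CPM in WT and 11.4, 10.9 and 12.0 in the subclones. The subclones again varied little (4.58%) and lay below WT, with a log2 fold change of -0.87 (SE 0.31, edgeR adjusted p = 0.101).

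*Cdk4*, the main partner of the D cyclins here, was at 357 CPM in WT and 236, 299 and 254 in the subclones, so WT was highest, with a log2 fold change of -0.44 (SE 0.23, edgeR adjusted p = 0.226). *Cdk4* shares 168 bases with *Tspan31* on the opposite strand, which had 3498 counts in WT and 2568, 2102 and 2057 in #1, #2 and #3. *Cdk6* was near the limit of detection, with 4 counts in WT, 1 in #1, 18 in #2 and 1 in #3. *Cdk4* gave at least 99.8% of the summed FPKM of *Cdk4* and *Cdk6* in every library. *Cdk9*, the elongation kinase, was at 327 CPM in WT and 234, 177 and 241 in the subclones, all below WT, with an unadjusted p of 0.0546.

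The other tested CDKs (*Cdk5*, *Cdk10*, *Cdk12*, *Cdk13*, *Cdk14*, *Cdk16*, *Cdk17*, *Cdk18*, *Cdk19* and *Cdk20*) had log2 fold changes between -1.87 for *Cdk14* and 1.18 for *Cdk18*. *Cdk14* had 21 counts in WT and 5, 10 and 5 in the subclones, and *Cdk18* had 11 counts in WT and 39, 21 and 28. WT lay inside the range of the subclones for *Cdk5*, *Cdk10*, *Cdk12*, *Cdk13* and *Cdk16*. *Cdk15* had 6 counts in WT and 5, 5 and 4 in the subclones and was not tested.

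None of the 5 tested CDK inhibitors was called by edgeR (beside 13.8% of all genes), and 1 (*Cdkn1a*) was called by DESeq2 (beside 21.3%). In edgeR 1 (*Cdkn1b*) had an unadjusted p under 0.05, 20% beside 34% of all genes. WT lay below all subclones for *Cdkn1a*, *Cdkn1b* and *Cdkn2b*, as in 5720 of the 15028 genes tested. *Cdkn1a*, which encodes p21, was at 40.0 CPM in WT, 169 in #1, 53.1 in #2 and 77.7 in #3. The spread among the subclones was wide, 3.18 times from lowest to highest, and the log2 fold change of 1.32 had a SE of 0.64 and an adjusted p of 0.196 by edgeR. Over the alternatives that adjusted p ran from 0.00481 without #2 to 0.265. *Cdkn1b*, which encodes p27, was at 21.1 CPM in WT and 36.8, 31.8 and 50.7 in the subclones, with a log2 fold change of 0.91 (SE 0.36, edgeR adjusted p = 0.131). *Cdkn1c*, which encodes p57, was at 4.91 CPM in WT and 7.69, 4.07 and 5.01 in the subclones, with WT inside their range. The summed FPKM of these Cip/Kip genes was 34.5 in WT and 111, 46.8 and 69.4 in #1, #2 and #3.

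The Ink4 inhibitors, which act on *Cdk4* and *Cdk6*, were rare in all libraries, with a summed FPKM of 1.35 in WT and between 1.10 and 1.35 in the subclones. *Cdkn2a* had 16 counts in WT and 11, 13 and 15 in the subclones, and counts per gene do not separate its p16 and Arf transcripts. *Cdkn2b* had 8 counts in WT and 13, 29 and 24 in the subclones. *Cdkn2c* had 2 counts in WT and 6, 7 and 5 in the subclones, a depth-scaled ratio of 2.55 with an exact 95% interval from 0.611 to 22.7, and was not tested.

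Among the 3 phosphatases that remove inhibitory phosphates from CDKs, none was called by edgeR or DESeq2, beside 13.8% and 21.3% of all genes. In edgeR 0 had an unadjusted p under 0.05, beside 34% of all genes. *Cdc25a* was at 113 CPM in WT and 151, 121 and 98.3 in #1, #2 and #3, with WT inside the range of the subclones. *Cdc25b* was at 28.4 CPM in WT and 35.0, 42.9 and 54.8 in the subclones, so WT was lowest, with a log2 fold change of 0.64 (SE 0.34, edgeR adjusted p = 0.231). *Cdc25c* was at 65.6 CPM in WT and 72.2, 69.9 and 77.7 in the subclones, with WT lowest and a log2 fold change of 0.16 (SE 0.25).

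The pocket proteins held the largest changes of the called members. *Rb1*, the retinoblastoma gene, had 6 counts in WT and 60, 48 and 63 in #1, #2 and #3. In CPM this was 0.404 in WT and 3.58, 2.72 and 3.51 in the subclones, a mean of 3.27 ± 0.479 (SD, n = 3). All subclones were above the exact 95% counting interval of the WT value, 0.148 to 0.879 CPM. That interval covers counting error only, and the comparison reuses the counts behind the call, so it adds no separate support. The WT count was under the filter's minimum of 10, so *Rb1* entered the test through the subclones, where it was high. It did not pass the stricter filter, a mean count of at least 50. The log2 fold change was 2.99 (SE 0.67, edgeR quasi-likelihood adjusted p = 0.0343), from 2.93 to 3.11 with each subclone left out, and the adjusted p-value ran from 0.00477 to 0.141 over the alternatives. *Rb1* spans 55083140 to 55209342 of chromosome 15 (minus strand) in the deposited coordinates. It contains 1809 bases shared with *Lpar6* on the opposite strand, a gene with 8 counts in WT and 4, 6 and 1 in the subclones.

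*Rbl1*, which encodes p107, had 8 counts in WT and 49, 65 and 91 in the subclones. In CPM it was at 0.538 in WT and 2.92, 3.68 and 5.06 in #1, #2 and #3, a mean of 3.89 ± 1.09 (SD, n = 3), against a counting interval of 0.232 to 1.06 CPM for WT. No subclone overlapped that interval, which covers counting error only, and the comparison reuses the counts behind the call. In WT, *Rbl1* too was under the filter's minimum count of 10 and entered the test through the subclones. The log2 fold change was 2.84 (SE 0.67, edgeR quasi-likelihood adjusted p = 0.0392), from 2.60 to 3.01 with each subclone left out, and the adjusted p-value ran from 0.00670 to 0.163. *Rbl1* spans 153263692 to 153321352 of chromosome 3 (minus strand) in the deposited coordinates, and it overlaps no other gene of the table.

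*Rbl2*, which encodes p130, differed from its relatives. It had 99 counts in WT and 144, 70 and 107 in the subclones, with WT inside their range and a log2 fold change of -0.11 (SE 0.51, edgeR adjusted p = 0.894). The summed FPKM of the 3 pocket protein genes was 1.66 in WT and 3.86, 2.87 and 3.93 in #1, #2 and #3. *Rbl2* made up 81.6% of this sum in WT and 45.5%, 28.0% and 30.4% in the subclones.

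**Figure D4:**
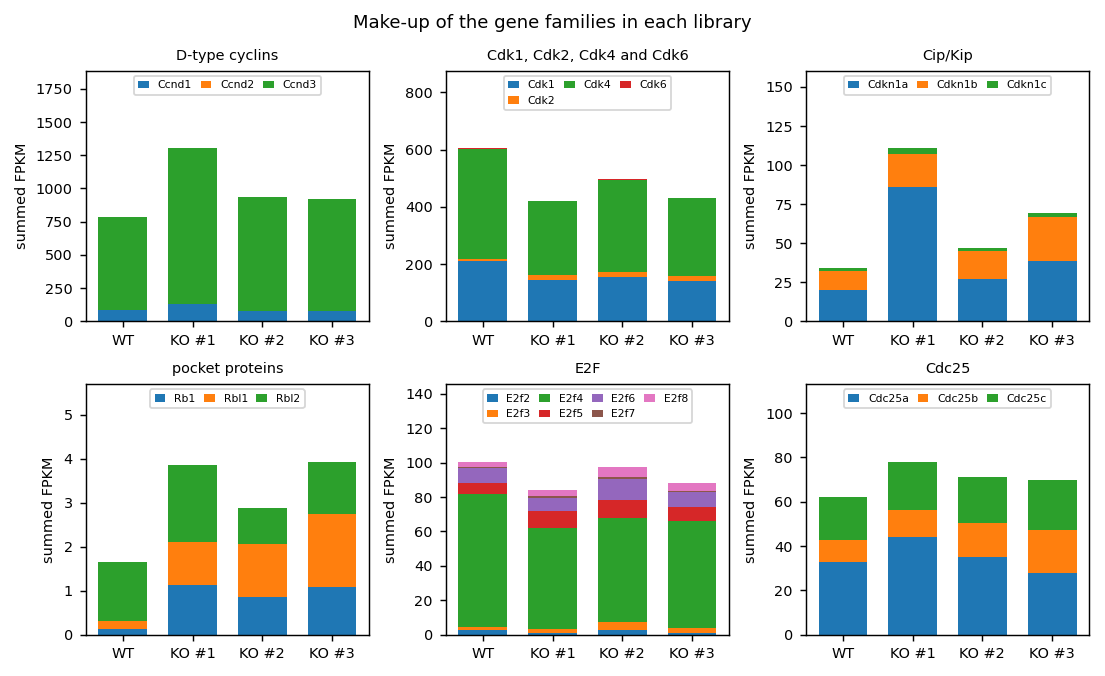
Summed FPKM of 6 gene families in each library, as stacked bars from 0, 1 bar per library. The pocket protein sum was 1.66 FPKM in WT and 2.87 to 3.93 in the subclones. *Ccnd3*, *Cdk4* and *E2f4* led their families in all 4 libraries.

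None of the 7 E2F genes was called by edgeR or DESeq2, beside 13.8% and 21.3% of all genes. In edgeR 1 (*E2f7*) had an unadjusted p under 0.05, 14.3% beside 34% of all genes. *E2f4*, a repressor that works with the pocket proteins, was at 158 CPM in WT and 119, 124 and 130 in #1, #2 and #3. WT was highest and the subclones close together, with a log2 fold change of -0.35 (SE 0.22, edgeR adjusted p = 0.309). *E2f4* gave between 62.3% and 76.7% of the summed E2F FPKM in the 4 libraries.

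The activators *E2f2* and *E2f3* were low and uneven among the subclones. *E2f2* had 189 counts in WT and 80, 250 and 114 in the subclones, and *E2f3* had 66 counts in WT and 98, 198 and 105. For both, #2 was the highest library. Their log2 fold changes were -0.59 (SE 0.60) for *E2f2* and 0.78 (SE 0.54) for *E2f3*. *E2f5*, a repressor like *E2f4*, was at 6.80 CPM in WT and 10.4, 10.6 and 8.68 in the subclones, with WT lowest. *E2f6*, a repressor that does not need the pocket proteins, was at 19.9 CPM in WT and 16.4, 27.3 and 18.8 in the subclones, with WT inside their range.

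*E2f7* and *E2f8* are atypical repressors that act late in S phase. *E2f7* had 19 counts in WT and 62, 80 and 53 in #1, #2 and #3, so WT was lowest, with a log2 fold change of 1.54 (SE 0.56), an unadjusted p of 0.0307 and an adjusted p of 0.111 in edgeR's quasi-likelihood fit. *E2f8* was at 8.55 CPM in WT and 9.06, 14.5 and 12.4 in the subclones, again with WT lowest, and its log2 fold change was 0.49 (SE 0.41).

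Among the 3 subclones the median coefficient of variation was 21.3% over the tested members beside 23.4% over all genes tested. Subclone #2 was highest of the 3 in 19 of the 42 tested members (45.2%, beside 39.5% of all genes), #1 in 13 and #3 in 10. Over all 4 libraries, WT had the highest value in 10 tested members (23.8%, beside 37.6% of all genes) and #3 in 6 (14.3%, beside 17.0%). Subclones #1 and #2 were level, with 13 members each (31.0%), beside 24.7% of all genes for #1 and 20.7% for #2. Those of #2 were *Ccnb1*, *Ccnd2*, *Ccne1*, *Cdk6*, *Cdk12*, *Cdk13*, *Cdkn2b* and all E2F genes but *E2f4*. This is also the library with the highest sum of fibroblast markers, 649 CPM, of which *Col1a1* held 555. *Col3a1* had 1414 counts there, beside 95 in WT, 271 in #1 and 663 in #3. *Col1a1*, *Pdgfrb* and *Postn* were also highest in #2. *Acta2* went the other way, with WT highest at 6.998 CPM beside 2.266, 6.844 and 1.725 in #1, #2 and #3. The part of fibroblast RNA in the values of the members was not tested. In bulk RNA, fewer cells in a phase of the cycle and less RNA per cell cannot be told apart.

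Beyond the 45 genes, 85 further genes of the cell cycle were listed, of which 81 have a row and 78 were tested. By edgeR 7 were called higher and 6 lower, 16.7% beside 13.8% of all genes, with a median log2 fold change of -0.09. Of these 13 calls, *Rrm2* alone held under every alternative, and the other 12 were lost without #3. A list of other cyclins, CDK docking proteins and CDK regulators had 4 of 19 tested genes called (21.1%, beside 13.8% of all genes). In it *Ccnf* (cyclin F) and *Pkmyt1*, a kinase that inhibits *Cdk1*, rose by log2 fold changes of 0.96 and 1.22. *Cks2*, a CDK docking subunit, and *Cdk2ap1*, a binding partner of *Cdk2*, had log2 fold changes of -0.87 and -1.17 and were called lower. In that order, the adjusted p-values of these 4 genes in edgeR's quasi-likelihood fit were 0.0445, 0.0390, 0.0499 and 0.0248, and they reached 0.204, 0.145, 0.323 and 0.121 over the alternatives. *Pkmyt1* shares 3138 bases with *Paqr4* on the opposite strand.

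Of the partners of E2F and of the MuvB complex, which switches cell cycle genes on and off, 2 of 10 tested were called, both higher. This is 20%, beside 13.8% of all genes. *Lin9* had 10 counts in WT and 59, 81 and 71 in #1, #2 and #3, a log2 fold change of 2.56 (SE 0.59, edgeR adjusted p = 0.0361). *Rbbp4*, a histone-binding subunit of that complex and others, was at 58.9 CPM in WT and 133, 123 and 129 in the subclones, a log2 fold change of 1.12. In both genes every subclone was above WT, as in 5720 of the 15028 genes tested.

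Of 17 E2F target genes, edgeR called 2 higher and 1 lower (17.6%, beside 13.8% of all genes), and DESeq2 called 4 higher and 3 lower. *Rrm2*, a subunit of ribonucleotide reductase, was at 62.1 CPM in WT and 485, 364 and 316 in the subclones, with a log2 fold change of 2.64 (SE 0.35, edgeR adjusted p = 0.00926). *Uhrf1*, which maintains DNA methylation, was at 331 CPM in WT and 917, 852 and 837 in the subclones. *Pcna*, the sliding clamp of DNA replication, was at 354 CPM in WT and 124, 162 and 114 in the subclones, with a log2 fold change of -1.41 (SE 0.26, edgeR adjusted p = 0.0210).

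Of 19 tested ubiquitin ligase genes and regulators, *Cdc23* was called higher, and *Anapc4* and *Fbxo5* were called lower (15.8%, beside 13.8% of all genes). *Cdc23* and *Anapc4* encode subunits of the anaphase-promoting complex, and their log2 fold changes were 2.07 and -1.42. *Cdc23* shares 1910 bases with *Kif20a* on the opposite strand, a gene with 1334 counts in WT and 1587, 2292 and 2179 in the subclones. *Fbxo5*, an inhibitor of that complex, had a log2 fold change of -1.15. Of 8 mitotic kinases and proliferation markers, *Top2a* alone was called (12.5%, beside 13.8% of all genes). *Top2a*, the topoisomerase that untangles chromosomes, was lower, with a log2 fold change of -1.05. None of 5 checkpoint genes was called by edgeR or DESeq2, beside 13.8% and 21.3% of all genes. By edgeR 2 had an unadjusted p under 0.05 (40%, beside 34% of all genes).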

How the data were processed

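Poly(A) RNA of 4 libraries was sequenced, 1 of WT and 3 of *Thop1*-KO. Samples were grouped by genotype in the labels and by the number in the library titles. That these numbers are those of the paper's subclones was assumed. The authors trimmed adaptors and noise from the reads (FASTX toolkit), and the submitters' processing notes name HISAT2 2.0.5 and featureCounts 1.5.0-p3. The genome build and annotation version are not given in the sources used here, and no strand-marking step is described, so genes with overlapping neighbours or close copies are uncertain. Bases shared between genes were taken from gene start to gene end, so they include introns and are not all counted sequence. The authors deposited raw counts per gene and FPKM values. Each deposited FPKM is the count over gene length, scaled by 1 factor for the library, within 1% for 100% of genes with at least 100 counts. Columns of other samples numbered 0.

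Counts were tested with edgeR 4.0.16 (limma 3.58.1, R 4.3.3): filterByExpr with a minimum count of 10, TMM, glmQLFit and glmQLFTest, Benjamini-Hochberg over 15028 genes, called at 0.05. The replicates are subclones. The p-values set the difference from the single WT library against a variance estimated from the spread between the subclones. The variation of WT was not estimated. Chi-square statistics per degree of freedom of 22.4 to 184 between pairs of libraries showed no duplicate. The script was tested on simulated counts. Alternatives were upper quartile scaling, library size scaling and size factors from DESeq2, DESeq2 1.42.0 itself, no filter, a mean count of at least 50, limma on log2(FPKM + 1) or, with the smaller pseudocount, on log2(FPKM + 0.1), a gene length correction by loess (span 0.3), rules with a fold of 2, and leaving out each subclone. Ratios for genes with at most 3 counts in WT and intervals on counts are exact at 95% and cover counting error only. Tests used counts apart from the limma alternatives, and FPKM served to describe levels, sums over families and shares in each library. Promoters of 300 bases came from RefSeq (GRCr8), matched by symbol, and no coordinates were converted. Other figures and tables used matplotlib 3.10.9, scipy 1.17.1, pandas 2.3.3 and numpy 2.4.6 in Python 3.11.15.

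Members were picked by a rule on symbols alone, but earlier results of these data were known when members and lists were chosen. Genes named were all members (full statistics for those called, values in every library for core members, unadjusted p under 0.05 or too few counts, the others by range with the extremes named), *Thop1*, and the called genes of the other lists. No protein sequences were used here.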

Additional observations from a re-analysis of the deposited data

How the results depend on the processing

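No paired analysis was possible because WT has 1 library, so the groups share fewer than 2 replicate numbers. Of the fold changes of tested members under the alternatives, 455 kept direction and side of the threshold, 8 gained and 8 lost an adjusted p under 0.05, and 22 turned direction. Members called higher, 3 as reported, numbered 1 with limma on log2(FPKM + 1) (*Cdk2*) and between 0 and 5 with each subclone left out. Members called lower, 0 as reported, numbered between 0 and 5. Over the whole table, 1295 higher and 777 lower became 2443 and 1597 with an unadjusted p under 0.05 and a fold of 2, DESeq2 called 1984 higher, and leaving out a subclone gave 354 to 3096 higher and 103 to 2476 lower. The other cell cycle genes, 7 higher and 6 lower, became 11 lower with DESeq2, 2 lower with limma on log2(FPKM + 0.1), 10 lower with the unadjusted rule, and 1 to 15 higher and 0 to 19 lower without a subclone. *Cdk2* lost its call with upper quartile scaling (adjusted p = 0.0509) and the gene length correction (0.0606), and *Rb1* and *Rbl1* with limma on log2(FPKM + 1) (0.0548 and 0.0690). The cause of these shifts was not tested. Direction turned only for members with log2 fold changes of at most 0.20 in size and for *Cdk6*, which had few counts. With the length correction these were *Ccnd1* (-0.071), *Cdc25a* (-0.12), *Cdc25c* (-0.084), *Cdk10* (-0.12), *Cdk5* (-0.0043) and *E2f6* (-0.068). With upper quartile scaling they were *Cdk10* (-0.090) and *E2f6* (-0.019), with library size *Ccnb1* (0.031) and *Cdk16* (0.039), with DESeq2's size factors *Cdk10* (-0.00037), with the stricter filter *Cdk10* (-0.062), and with limma on log2(FPKM + 0.1) *Cdk6* (-0.18). With each subclone left out, the log2 fold change ran from -0.17 to 0.061 for *Ccnb1*, -0.071 to 0.33 for *Ccnd1*, -0.032 to 0.27 for *Cdc25a*, -0.050 to 0.092 for *Cdk10*, -0.095 to 0.074 for *Cdk16*, -0.020 to 0.20 for *Cdk5*, -0.10 to 0.37 for *Cdkn1c*, -0.17 to 0.23 for *E2f6* and -0.42 to 0.13 for *Rbl2*. Counts under about 20 in WT limit the precision for *Rb1*, *Rbl1*, *E2f7* and the Ink4 genes.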

Other observations

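The file describes 4 rows by likeness to cyclin B2, and 3 of these are loci that the authors added to the annotation. An annotated gene (ENSRNOG00000055111) had 760 counts in WT and 607, 667 and 539 in #1, #2 and #3, a log2 fold change of -0.56 (SE 0.27, edgeR quasi-likelihood adjusted p = 0.194). An added locus on chromosome 16 had 15 counts in WT and 8, 24 and 16 in the subclones, with WT inside their range. The other 2 were singled out after their values were seen. Both lie on the minus strand of chromosome 8 in the deposited coordinates, from 76847974 to 76850577 and from 76851242 to 76861253, with 664 bases between them. The locus with the lower coordinates had 547 counts in WT and 157, 170 and 157 in #1, #2 and #3, a log2 fold change of -1.99 (SE 0.29, edgeR quasi-likelihood adjusted p = 0.0116). The other had 122 counts in WT and 481, 567 and 455 in the subclones, a log2 fold change of 1.80 (SE 0.35, edgeR quasi-likelihood adjusted p = 0.0239). Without #3 the adjusted p-values of these 2 loci were 0.0626 and 0.0890, and over the other alternatives both stayed under 0.05. Their fold changes had opposite signs. No subclone overlapped WT at either of them, as WT lay outside the range of the subclones in 75.7% of all genes tested. Their sum was 669 counts in WT and 638, 737 and 612 in the subclones. Scaled to library size it was 45.0 CPM in WT and 38.0, 41.7 and 34.1 in #1, #2 and #3, so WT was highest. The locus with the lower coordinates held 81.8% of that sum in WT and 24.6%, 23.1% and 25.7% in the subclones. Whether both belong to 1 gene was not tested.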
